A study of Mus musculus with 20 samples.

Results

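The cell cycle ends with mitosis, in which the copied chromosomes are separated, and cytokinesis, in which the cell is cut into its daughters. The values described here are those of 35 mouse genes whose products carry out these steps. They were measured on 20 Clariom S microarrays of a series on erythroblasts, the nucleated precursors of red cells. A gene was taken when a probe set was annotated with exactly 1 symbol equal to its name, and with several such probe sets the one with the highest mean over the 20 arrays would have been used. All 35 genes were found, each with 1 probe set, among 19572 annotated probe sets that name 19505 genes.

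The series asked how erythroblasts that lack both mDia1 and miR-146a, and erythroblasts exposed to interleukin 6 (IL-6), differ in transcription. mDia1 is a formin, a protein that builds actin filaments, and miR-146a is a microRNA that restrains innate immune signalling. Of the 20 arrays, 8 held cultured cells: lineage-negative marrow cells of female wild-type C57BL/6 mice grown with erythropoietin, with no IL-6 (D1-Control, D2-Control) or with 100 ng/mL of it present throughout (D1-IL6, D2-IL6). D1 and D2 are collection points that the labels do not define further. The other 12 arrays held cells labelled as erythroblasts. They came from C57BL/6 mice that were 1 year old and were wild type for both genes (DWT) or mDia1-miR-146a double knockout (DKO). The stages of these cells are labelled I for proerythroblasts, II+III for basophilic with polychromatic cells, and IV for orthochromatic ones. Every group had 2 arrays. At each stage 1 DWT array came from a male and 1 from a female, and all DKO arrays came from females, so that sex is not balanced between the genotypes. How the stages were separated is not given in the sources used here, and no label says which DKO arrays came from the same mouse. Replicates 1 and 2 are numbered in accession order.

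In a dividing cell, the kinase Cdk1 with its cyclins drives entry into mitosis, and Aurora and Polo-like kinases build the spindle. Kinetochores, with Ndc80 and Nuf2 among their subunits, hold the chromosomes on spindle microtubules, and a checkpoint of Bub1, Bub1b, Ttk and Mad2l1 holds back Cdc20 until all are attached. The chromosomal passenger complex (Aurkb, Birc5, Cdca8 and Incenp) then moves to the central spindle, where Kif23 and Racgap1 recruit Ect2 to switch on the contractile ring, Anln and Cit organise the ring, and Cep55 directs the last cut. Transcripts of most of these genes accumulate late in the cell cycle under factors that act at CHR elements (TTTGAA) and CCAAT boxes close to the start of transcription. Erythroblasts divide a few times while they mature, and textbook accounts place orthochromatic erythroblasts after the last division.

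The letters of those elements were looked for in the RefSeq promoters of mouse build GRCm38.p6, which were given for 30 of the 35 genes. Within the 250 bases before the annotated start, on either strand, TTTGAA was found in 10 of the 30 (33.3%) and in 18.3% of the 27025 genes of the promoter table. CCAAT was found in 21 of the 30 (70.0%) against 37.5% of all, and both were found in 9 of the 30 against 6.5% of all. The letters of these motifs do not overlap one another, and a match describes the sequence, not a site in use. The 120 bases before the start are shown for 4 genes that hold both motifs, with one gene per function (kinase, checkpoint target, chromosome enzyme and spindle motor), and for Anln, which holds neither, as the contrast. They are written 5′ to 3′ on the strand of the gene, with TTTGAA and CCAAT or their reverse complements in capitals.
Cdk1 (minus strand, chr10:69352913-69353032): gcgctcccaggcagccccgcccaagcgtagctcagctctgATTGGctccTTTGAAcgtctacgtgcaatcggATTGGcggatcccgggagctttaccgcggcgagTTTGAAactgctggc
Cdc20 (minus strand, chr4:118437344-118437463): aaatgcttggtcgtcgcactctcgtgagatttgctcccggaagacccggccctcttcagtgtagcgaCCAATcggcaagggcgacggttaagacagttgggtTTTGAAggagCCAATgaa
Top2a (minus strand, chr11:99024190-99024309): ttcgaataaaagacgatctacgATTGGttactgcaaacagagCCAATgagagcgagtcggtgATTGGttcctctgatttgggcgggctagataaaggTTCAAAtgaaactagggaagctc
Kif11 (plus strand, chr19:37376262-37376381): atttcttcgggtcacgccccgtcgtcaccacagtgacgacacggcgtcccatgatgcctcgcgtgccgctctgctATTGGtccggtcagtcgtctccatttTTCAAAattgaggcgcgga
Anln (minus strand, chr9:22389207-22389326): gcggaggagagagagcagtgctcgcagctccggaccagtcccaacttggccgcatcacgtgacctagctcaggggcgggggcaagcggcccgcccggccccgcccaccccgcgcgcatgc
Counting to the first base of each match within the bases shown, Cdk1 held TTTGAA 15 and 71 bases before the start and CCAAT 48 and 80 bases before it. Cdc20 held TTTGAA at 18 bases and CCAAT at 8 and 53. Top2a held TTTGAA at 23 bases and CCAAT at 58, 78 and 98, and Kif11 held TTTGAA at 19 bases and CCAAT at 45. In each of the 4 comparisons in which Anln passed the test, described further on, its log2 difference had the same sign as those of these genes. These genes did not all pass there. The comparisons were picked by Anln passing, and most of the 35 genes shared the sign in them. The match therefore does not bear on the motifs.

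The arrays were of like overall signal, but DKO-I replicate 2 stood apart from its replicate and in its positive controls. Between 34.9% and 43% of probe sets lay above background on each array, background being the 95th percentile of the 23 background probe sets of that array (7.25 to 7.74, log2), and a gene at or below it is called near background here. Replicate arrays correlated at 0.97 to 0.994 over all probe sets in 9 groups and at 0.903 in DKO-I, where the replicates differed by 2.21 on average over the 35 genes and by 0.91 over all probe sets. The median of the positive control probe sets was 10.04 on DKO-I replicate 2 and 10.81 to 11.48 on the other 19 arrays. Each DKO-I array is therefore given separately, and results of the mouse arrays are given with and without DKO-I replicate 2, an alternative chosen after the data were seen. Diaph1, which encodes mDia1, was at or below the background on the 6 DKO arrays (6.87 to 7.59) and at 9.29 to 11.49 on the 6 DWT arrays.

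Markers of the labelled cell type were present on all arrays but were low at stage I of the DKO. The mean of 9 erythroid markers was 14.66 to 15.11 in culture. On mouse arrays it was 12.98 and 12.83 in DWT-I, 14.72 and 14.00 in DWT-II+III, then 15.74 and 15.50 in DWT-IV, 9.79 and 9.04 in DKO-I, 12.03 and 13.02 in DKO-II+III, and 15.40 and 15.43 in DKO-IV. None of the 9 was near background outside DKO-I, where Gata1 and Epor were on replicate 1 and Epor, Tfrc and Kel on replicate 2. The mean of 10 neutrophil markers, such as S100a8 and Ngp, ran the other way: 16.50 and 16.70 in DWT-I, 11.88 and 13.58 in DWT-II+III, then 7.98 and 10.47 in DWT-IV, 17.26 and 15.75 in DKO-I, 15.82 and 15.80 in DKO-II+III, and 12.95 and 12.44 in DKO-IV. In culture it was 5.86 to 8.63. The mean of 7 granulocyte progenitor markers was 13.93 and 13.65 in DWT-I and 9.25 and 9.61 in DWT-IV. In these bulk samples, a different mix of cell types, fewer dividing cells and less RNA per dividing cell cannot be told apart.

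Most of the 35 genes shared 1 profile over the groups, with Cep55 and, in culture, Incenp as exceptions. By group mean, 30 of them were highest in DWT-IV and 32 were lowest in DKO-I, whose mean includes the low replicate 2. On DKO-I replicate 1, Cdk1 (13.11), Aurkb (13.11) and Racgap1 (13.09) lay above their DKO-II+III means (12.59, 12.38 and 11.76). Mki67 (15.99) and Cit (9.94) lay below theirs there (16.42 and 10.59). The matching shares of all probe sets were not computed. On 22 of the 35 both DWT-IV arrays lay above the other 18 arrays, which was so for 3.47% of all probe sets. The 4 stage IV arrays of both genotypes lay above the other 8 mouse arrays for 32 genes, all but Bub1b, Kif20b and Cep55, against 8.6% of all probe sets. Over the 20 arrays the correlation of a gene with the mean of the other 34 was 0.85 to 0.99 for 33 genes, 0.69 for Incenp and -0.63 for Cep55. These points share groups and the 1 low array, and without DKO-I replicate 2 the 33 correlations were 0.80 to 0.99.

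**Figure D1:**
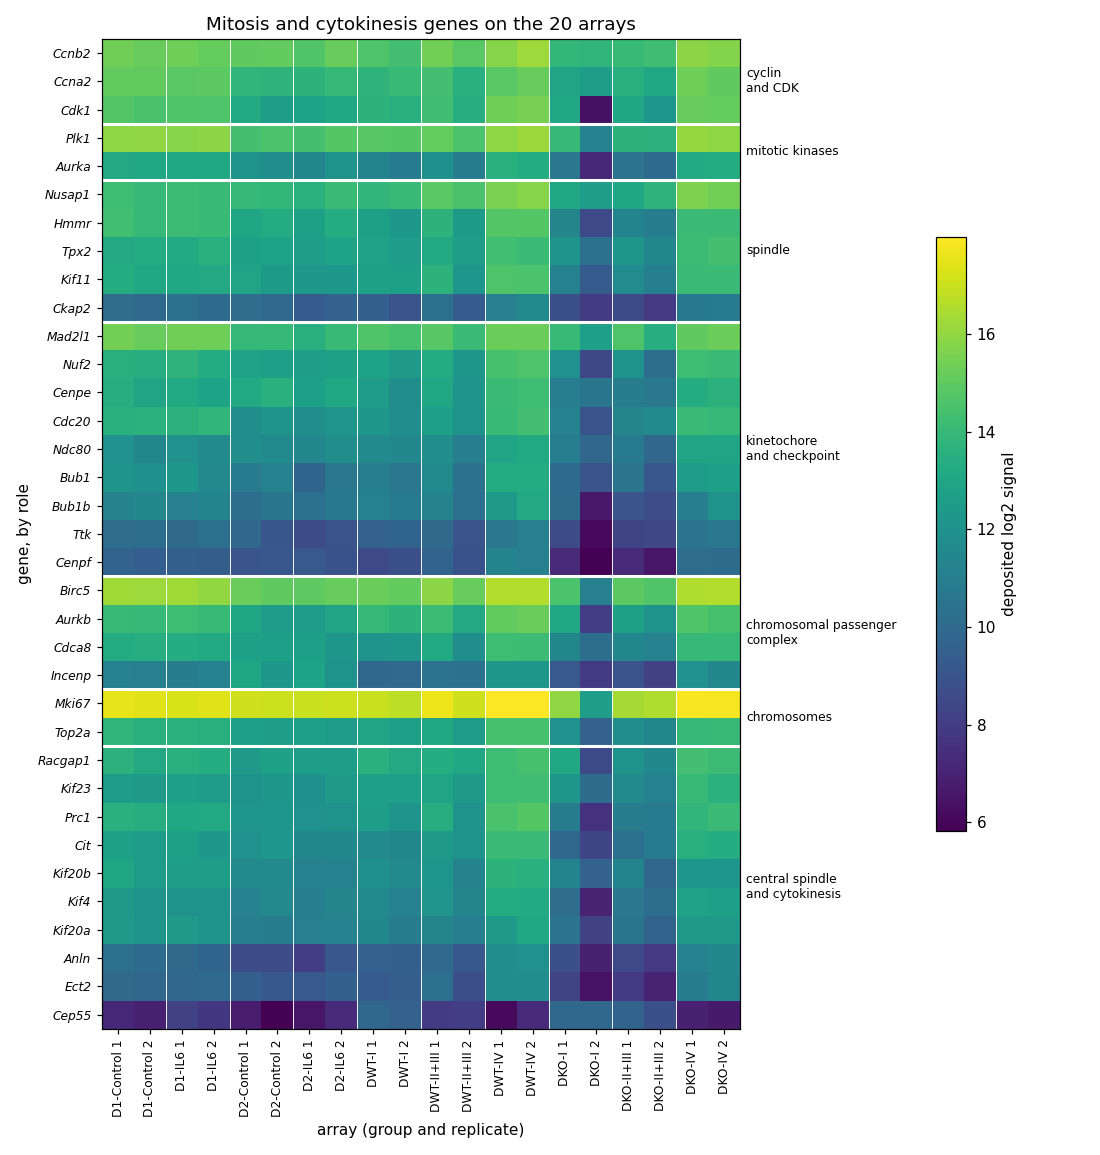
Deposited log2 signal (colour) of the 35 genes (rows, by role) on the 20 arrays (columns, by group and replicate); colours compare arrays within a gene, since probe sets differ in brightness. The DWT-IV and DKO-IV columns are the brightest for most genes, DKO-I replicate 2 is the darkest, and Cep55 runs the other way.

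Among the cyclins and their kinase, the cyclin B gene Ccnb2 varied least and Cdk1 most. Ccnb2 was at 15.33 and 15.17 in D1-Control, 15.30 and 15.11 in D1-IL6, 15.04 and 15.09 in D2-Control and 14.71 and 15.18 in D2-IL6 (log2 signal, replicates 1 and 2). On mouse arrays it was at 14.64 and 14.35 in DWT-I, 15.39 and 14.88 in DWT-II+III, then 15.77 and 16.23 in DWT-IV, 13.87 and 13.77 in DKO-I, 14.02 and 14.25 in DKO-II+III and 15.87 and 15.74 in DKO-IV. All cultured arrays lay between the stage I and stage IV arrays, and the replicates of DKO-I were 0.10 apart. Cdk1 was at 14.72 and 14.48 in D1-Control, 14.71 and 14.65 in D1-IL6, 13.20 and 12.62 in D2-Control and 12.88 and 13.12 in D2-IL6. It was at 13.70 and 13.49 in DWT-I, 14.24 and 13.40 in DWT-II+III, then 15.32 and 15.48 in DWT-IV, 13.11 and 6.37 in DKO-I, 12.98 and 12.20 in DKO-II+III and 15.18 and 15.10 in DKO-IV. All D1 arrays were above all D2 arrays, and of the 20 arrays only DKO-I replicate 2 was near background. Ccna2, the cyclin A that partners Cdk1 before mitosis, had group means from 12.79 in DKO-I to 15.14 in DKO-IV.

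Both mitotic kinases were high at D1 and at stage IV. Plk1, which acts from mitotic entry to cytokinesis, was at 15.94 and 15.97 in D1-Control, 15.79 and 15.89 in D1-IL6, 14.38 and 14.56 in D2-Control and 14.40 and 14.79 in D2-IL6. In the mice it was at 14.81 and 14.79 (DWT-I), 15.13 and 14.56 (DWT-II+III), 15.90 and 16.15 (DWT-IV), 13.97 and 11.22 (DKO-I), 13.70 and 13.65 (DKO-II+III) and 16.05 and 15.91 (DKO-IV). For Plk1 the D1 arrays and the stage IV arrays overlapped. Aurka, the kinase of spindle poles, was at 13.15 and 13.10 in D1-Control, 13.09 and 13.13 in D1-IL6, 12.03 and 11.88 in D2-Control and 11.41 and 12.08 in D2-IL6. Its mouse values were 11.32 and 10.90 in DWT-I, 11.94 and 10.94 in DWT-II+III, then 13.53 and 13.35 in DWT-IV, 10.68 and 7.19 in DKO-I, 10.44 and 10.10 in DKO-II+III and 13.27 and 13.31 in DKO-IV. Aurka at stage IV lay above all other arrays, those of D1 being next. It was near background on DKO-I replicate 2 alone.

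Of the 5 spindle genes, Nusap1, a protein that bundles microtubules near chromosomes, was the most even in culture. It was at 14.23 and 13.97 in D1-Control, 14.15 and 14.07 in D1-IL6, 13.91 and 13.86 in D2-Control and 13.59 and 14.10 in D2-IL6, so that D1 and D2 were close. In the mice Nusap1 was at 13.81 and 14.08 in DWT-I, 14.86 and 14.51 in DWT-II+III, then 15.52 and 15.79 in DWT-IV, 13.06 and 12.66 in DKO-I, 12.99 and 13.75 in DKO-II+III and 15.60 and 15.38 in DKO-IV, and here DWT-II+III lay above DWT-I. Hmmr, a microtubule-binding protein of the spindle, ranged most: 14.33 and 13.96 in D1-Control, 14.15 and 14.01 in D1-IL6, 12.96 and 13.30 in D2-Control and 12.72 and 13.34 in D2-IL6. Its mouse values were 12.76 and 12.30 in DWT-I, 13.67 and 12.46 in DWT-II+III, then 14.73 and 14.76 in DWT-IV, 11.37 and 8.53 in DKO-I, 11.32 and 10.98 in DKO-II+III and 14.12 and 14.12 in DKO-IV. Every DKO array of stages I and II+III was below every DWT array for Hmmr. Tpx2, which activates Aurka on the spindle, Kif11, the motor that pushes the poles apart, and Ckap2, a microtubule stabiliser, had their highest group mean at stage IV: 14.27 for Tpx2 in DKO-IV, and 14.60 for Kif11 and 11.39 for Ckap2 in DWT-IV.

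Among the 9 kinetochore and checkpoint genes, Mad2l1, the checkpoint protein that binds Cdc20, had the narrowest range of group means (1.99) and Cenpf, an outer kinetochore protein, the widest (4.64). Mad2l1 was at 15.43 and 15.18 in D1-Control, 15.37 and 15.32 in D1-IL6, 13.93 and 13.98 in D2-Control and 13.50 and 14.03 in D2-IL6. On mouse arrays it was at 14.67 and 14.45 in DWT-I, 14.84 and 14.13 in DWT-II+III, then 15.25 and 15.26 in DWT-IV, 14.04 and 12.68 in DKO-I, 14.64 and 13.42 in DKO-II+III and 15.00 and 15.27 in DKO-IV. Its D1 arrays reached the stage IV level, and DKO-II+III replicate 1 lay within the DWT range. Cenpf was at 9.69 and 9.47 in D1-Control, 9.56 and 9.41 in D1-IL6, 9.02 and 9.12 in D2-Control and 9.22 and 8.91 in D2-IL6. It was at 8.51 and 8.79 in DWT-I, 9.71 and 8.88 in DWT-II+III, then 11.32 and 11.12 in DWT-IV, 7.33 and 5.83 in DKO-I, 7.31 and 6.56 in DKO-II+III and 10.19 and 10.12 in DKO-IV. Cenpf was near background on the 4 DKO arrays of stages I and II+III and on no other array. Bub1b and Ttk were near background on 1 array each, DKO-I replicate 2 (6.65 and 6.15).

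In the chromosomal passenger complex, Birc5 (survivin) and Aurkb followed the common profile. Birc5 was at 16.24 and 16.23 in D1-Control, 16.26 and 16.03 in D1-IL6, 15.20 and 15.04 in D2-Control and 14.98 and 15.16 in D2-IL6. It was at 15.24 and 15.09 in DWT-I, 15.86 and 15.16 in DWT-II+III, then 16.59 and 16.60 in DWT-IV, 14.55 and 11.12 in DKO-I, 14.92 and 14.70 in DKO-II+III and 16.55 and 16.57 in DKO-IV. The stage IV arrays of both genotypes were within 0.04 of each other for Birc5. Aurkb, the kinase of the complex, was at 14.04 and 13.96 in D1-Control, 14.21 and 14.09 in D1-IL6, 13.00 and 12.56 in D2-Control and 12.52 and 12.91 in D2-IL6. Its mouse values were 13.92 and 13.69 in DWT-I, 14.18 and 13.18 in DWT-II+III, then 15.05 and 15.19 in DWT-IV, 13.11 and 8.11 in DKO-I, 12.75 and 12.01 in DKO-II+III and 14.70 and 14.47 in DKO-IV. Incenp, the scaffold of the complex, had a course of its own in culture, with 11.20 and 11.12 in D1-Control, 10.99 and 11.15 in D1-IL6, 12.98 and 12.30 in D2-Control and 12.89 and 12.05 in D2-IL6. For Incenp every D2 array was above every D1 array, and it was the only one of the 35 genes for which this was so (24.3% of all probe sets). In the mice Incenp was at 9.92 and 10.00 in DWT-I, 10.44 and 10.38 in DWT-II+III, then 12.26 and 12.26 in DWT-IV, 9.23 and 7.88 in DKO-I, 8.93 and 8.23 in DKO-II+III and 12 and 11.47 in DKO-IV, highest at stage IV as the others were.

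Both chromosome genes followed the common profile. Mki67, which encodes the proliferation antigen Ki-67 that coats mitotic chromosomes, was at 17.53 and 17.42 in D1-Control, 17.27 and 17.39 in D1-IL6, 17.11 and 17.06 in D2-Control and 16.97 and 17.06 in D2-IL6. In the mice it was at 16.98 and 16.78 in DWT-I, 17.67 and 17.10 in DWT-II+III, then 17.99 and 17.96 in DWT-IV, 15.99 and 12.61 in DKO-I, 16.33 and 16.52 in DKO-II+III and 17.87 and 17.82 in DKO-IV. Apart from DKO-I replicate 2, the 20 arrays lay within 2.01 of one another for Mki67. Top2a, the topoisomerase that untangles sister chromosomes, was at 13.81 and 13.43 in D1-Control, 13.60 and 13.48 in D1-IL6, 12.69 and 12.66 in D2-Control and 12.70 and 12.53 in D2-IL6. It was at 12.93 and 12.70 in DWT-I, 13.13 and 12.48 in DWT-II+III, then 14.46 and 14.44 in DWT-IV, 11.97 and 9.64 in DKO-I, 11.84 and 11.43 in DKO-II+III and 13.96 and 14.04 in DKO-IV. Top2a and Prc1 were the genes closest to the mean of the other 34, at a correlation of 0.99 each over the 20 arrays.

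Kif23 and Racgap1 form the centralspindlin complex of the central spindle. Kif23 was at 12.48 and 12.41 in D1-Control, 12.70 and 12.49 in D1-IL6, 12.04 and 12.27 in D2-Control and 11.94 and 12.36 in D2-IL6, and at 12.70 and 12.70 in DWT-I, 12.95 and 12.39 in DWT-II+III, with 14.20 and 14.25 in DWT-IV. In the DKO it was at 12.27 and 10.13 in DKO-I, 11.66 and 11.17 in DKO-II+III and 14.00 and 13.61 in DKO-IV. All stage IV arrays of Kif23 were above all cultured arrays. Racgap1, its partner, was at 13.65 and 13.15 in D1-Control, 13.47 and 13.34 in D1-IL6, 12.40 and 12.77 in D2-Control and 12.62 and 12.62 in D2-IL6, and at 13.57 and 13.18 in DWT-I, 13.34 and 13.11 in DWT-II+III, with 14.23 and 14.46 in DWT-IV. In the DKO Racgap1 was at 13.09 and 8.57 in DKO-I, 12.02 and 11.49 in DKO-II+III and 14.36 and 14.15 in DKO-IV. The DKO-I replicates of Racgap1 were 4.52 apart, and replicate 1 was 0.09 below the nearer DWT-I array. Prc1, which crosslinks the microtubules of the central spindle, was at 13.57 and 13.41 in D1-Control, 13.12 and 13.20 in D1-IL6, 12.23 and 12.21 in D2-Control and 11.98 and 12.06 in D2-IL6. It was at 12.61 and 12.12 in DWT-I, 13.39 and 12.05 in DWT-II+III, then 14.49 and 14.80 in DWT-IV, 10.98 and 7.62 in DKO-I, 10.94 and 10.90 in DKO-II+III and 13.84 and 14.13 in DKO-IV, the widest range of group means among the 10 genes of this role. That range includes DKO-I replicate 2, on which Prc1 was near background. Its next lowest group mean was 10.92 in DKO-II+III.

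Kif20a is the motor that carries the passenger complex to the central spindle. It was at 12.35 and 12.12 in D1-Control, 12.38 and 12.13 in D1-IL6, 11.02 and 10.96 in D2-Control and 11.12 and 11.20 in D2-IL6, every D1 array being above every D2 array. In the mice Kif20a was at 11.50 and 10.94 in DWT-I, 11.35 and 11.01 in DWT-II+III, then 12.36 and 13.09 in DWT-IV, 10.45 and 8.18 in DKO-I, 10.55 and 9.70 in DKO-II+III and 12.39 and 12.40 in DKO-IV. Kif4, a chromokinesin of the central spindle, had group means from 8.62 in DKO-I to 13.28 in DWT-IV, and those of Kif20b, a related motor, ran from 10.49 in DKO-I to 13.60 in DWT-IV.

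The contractile ring genes Ect2, Anln and Cit were highest at stage IV. Ect2, the exchange factor that activates RhoA, was at 10.04 and 9.83 in D1-Control, 9.83 and 9.97 in D1-IL6, 9.57 and 9.16 in D2-Control and 9.24 and 9.56 in D2-IL6. In the mice it was at 9.31 and 9.51 in DWT-I, 10.27 and 8.75 in DWT-II+III, then 11.83 and 11.77 in DWT-IV, 8.32 and 6.44 in DKO-I, 7.89 and 7.05 in DKO-II+III and 10.98 and 11.42 in DKO-IV, and it was near background on DKO-I replicate 2 and DKO-II+III replicate 2. Anln (anillin, the ring scaffold) was at 10.25 and 10.09 in D1-Control, 10.03 and 9.75 in D1-IL6, 8.66 and 8.60 in D2-Control and 8.02 and 9.11 in D2-IL6. For Anln the D1 arrays were above the D2 arrays, and the mouse values were 9.65 and 9.56 in DWT-I, 10.00 and 9.18 in DWT-II+III, then 11.79 and 11.97 in DWT-IV, 8.78 and 6.94 in DKO-I, 8.49 and 7.83 in DKO-II+III and 11.22 and 11.46 in DKO-IV. Cit, the citron kinase of the midbody, was at 12.74 and 12.53 in D1-Control, 12.73 and 12.31 in D1-IL6, 11.98 and 12.20 in D2-Control and 11.41 and 11.49 in D2-IL6. It was at 11.62 and 11.41 in DWT-I, 12.43 and 12.09 in DWT-II+III, then 14.11 and 14.13 in DWT-IV, 9.94 and 8.37 in DKO-I, 10.29 and 10.89 in DKO-II+III and 13.43 and 13.35 in DKO-IV. Cit at stage IV exceeded every cultured array in both genotypes. Anln was near background on DKO-I replicate 2 alone.

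Cep55, the abscission scaffold, was the exception. It was at 7.25 and 6.91 in D1-Control, 8.24 and 7.79 in D1-IL6, 6.74 and 5.92 in D2-Control and 6.55 and 7.33 in D2-IL6. In the mice it was at 9.96 and 9.64 in DWT-I, 7.94 and 8.03 in DWT-II+III, then 6.14 and 7.35 in DWT-IV, 9.89 and 9.89 in DKO-I, 9.68 and 8.82 in DKO-II+III and 6.95 and 6.69 in DKO-IV. It was near background on 9 of the 20 arrays, among them 3 of the 4 stage IV arrays, and it was highest at stage I, where the DKO and DWT arrays differed by at most 0.25. The neutrophil marker mean was also highest at stage I, and its part in the level of Cep55 was not tested.

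Between D1 and D2 most of the 35 genes fell in both cultures. Without IL-6, 21 fell and 1 rose (limma, Benjamini-Hochberg adjusted p under 0.05 over all probe sets), where 23.5% of all probe sets fell and 19.7% rose. With IL-6, 26 fell and 1 rose, against 20.2% and 13.0% of all. The median log2 change of the 35 was -0.81 without and -0.93 with IL-6, and that of all probe sets was 0.17 and 0.09. For 28 of the 35 genes the 4 D1 arrays lay above the 4 D2 arrays, as for 23.9% of all probe sets. The largest falls without IL-6 were those of Cdk1 (-1.69, SE 0.19, 3.23-fold, adjusted p = 5.05e-05), Cdc20 (-1.59, SE 0.18), Anln (-1.54, SE 0.35), Plk1 (-1.49, SE 0.13) and Mad2l1 (-1.35, SE 0.17). With IL-6 they were those of Cdc20 (-1.74, SE 0.18, 3.35-fold, adjusted p = 3.54e-05), Bub1 (-1.68, SE 0.35), Cdk1 (-1.68, SE 0.19), Mad2l1 (-1.58, SE 0.17) and Aurkb (-1.43, SE 0.19). Incenp rose by 1.48 (SE 0.30, adjusted p = 0.00269) without and by 1.40 (SE 0.30, adjusted p = 0.00462) with IL-6.

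By role, both mitotic kinases and both chromosome genes fell in both cultures, as did Birc5, Aurkb and Cdca8 of the passenger complex. Of the 10 central spindle and cytokinesis genes, 6 fell without and 8 with IL-6. Of the 9 kinetochore and checkpoint genes, 5 and 6 fell. Of the 5 spindle genes 1 (Hmmr) fell without IL-6 and 3 fell with it. Cep55, counted among those that fell with IL-6, was near background on both D2-IL6 arrays, so that its fall is known only to be at least 1.28-fold. Ccnb2, Nusap1, Cenpe, Cenpf, Ndc80, Ckap2, Kif23 and Ect2 passed in neither culture, at log2 differences from 0.22 (Cenpe, without IL-6) to -0.74 (Ckap2, with IL-6). Mki67 fell by 0.39 (SE 0.07) without and by 0.31 (SE 0.07) with IL-6.

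**Figure D2:**
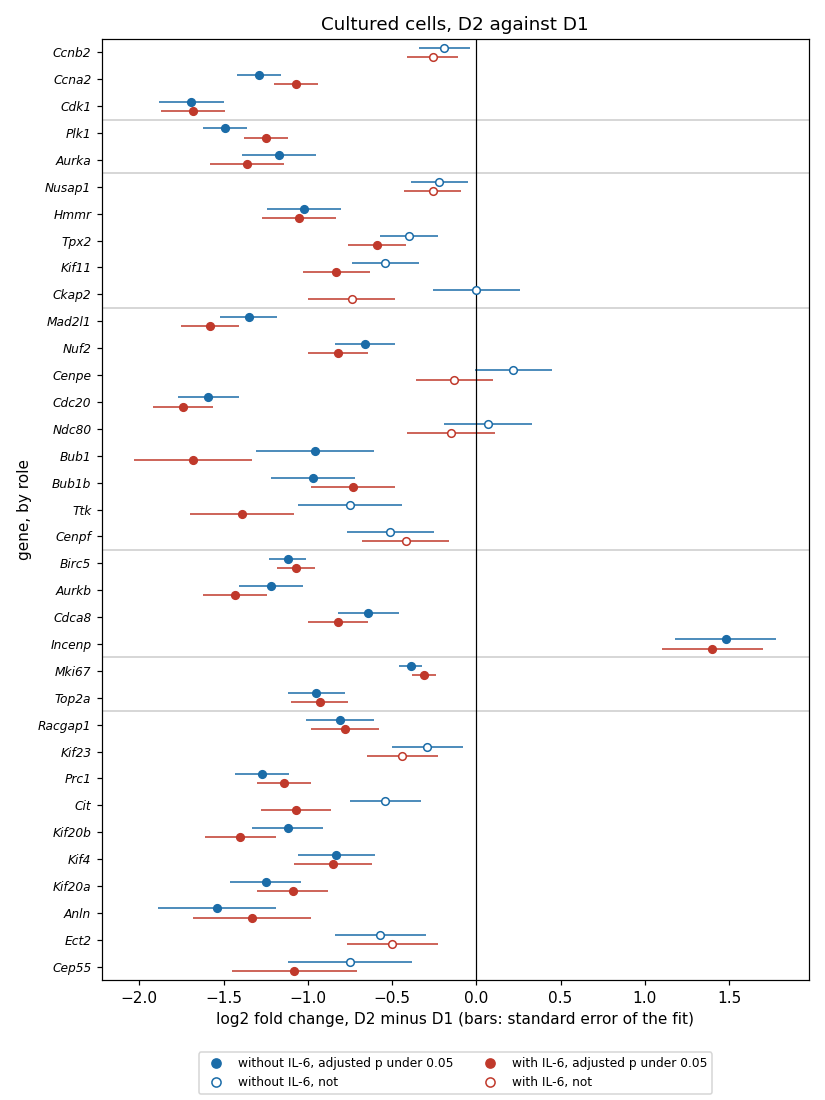
Log2 fold change of each gene from D1 to D2 (points) with the standard error of the fit (bars), without IL-6 (blue) and with IL-6 (red), filled where the adjusted p was under 0.05. The genes lie between 0.22 and -1.74 in both cultures, apart from Incenp at 1.48 and 1.40.

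Gene lists of neighbouring functions were counted over the same step, where 23.5% (without IL-6) and 20.2% (with it) of all probe sets fell. All 22 S phase genes fell in both cultures, with medians of -2.29 and -2.49, led without IL-6 by Gins2 (-3.23), Cdt1 (-3.20) and Gins1 (-3.06). The median fall of the 35 genes was smaller than that of the S phase genes, a difference that was not tested. Of 8 condensin genes 7 fell in each culture, among them Ncapd3 (-1.74 without IL-6) and Ncapg2 (-1.93 with IL-6). Of 30 further kinetochore genes 18 and 22 fell, with Zwilch the lowest (-3.66 and -3.15). Of 21 genes of the anaphase-promoting complex and its partners, 15 and 13 fell and 2 rose: Fzr1, which encodes the Cdh1 activator of the complex (2.74 and 2.73), and Pttg1, which encodes securin (2.60 and 2.81). Of 18 regulators of mitotic entry 10 fell in each culture, Cdc25a among them (-3.41 without IL-6, and at least 13.3-fold with it, being near background on both D2-IL6 arrays), and Cdc25b (0.93 and 0.70) and Lin37 (2.33 and 1.90) rose. Further mitotic kinesins fell in 7 and 8 of 8 cases, 16 of 30 centrosome and spindle genes (53.3%) fell in each culture, and 14 and 11 of 38 abscission and contractile ring genes (36.8% and 28.9%) fell, nearer the share of all probe sets. In the last list Chmp3, a subunit of the abscission machinery, rose (2.30 and 2.23) and the non-muscle myosin gene Myh10 fell (-2.55 and -3.69). Erythroid markers had a median change of 0.11 without and -0.28 with IL-6 (3 of 9 rose in each, 2 and 3 fell). Markers of other blood cells also moved over this step. Granulocyte progenitor markers had medians of -4.46 and -2.94 (5 of 7 fell in each), mast cell and basophil markers of -4.54 and -4.89 (4 of 4 fell in each), and stem and progenitor markers of -3.01 and -2.29 (4 and 3 of 4 fell). Kit, the stem cell factor receptor, fell at least 49.2-fold without and 37.7-fold with IL-6, to near background on all D2 arrays. Monocyte and macrophage markers fell without IL-6 (7 of 7, median -4.13), and with it 3 of 7 rose and 1 fell (median 0.51). The marker medians are of fitted values, also for markers near background at D2, such as Ctsg without IL-6 (at least 10.1-fold lower). The part of these markers in the fall of the 35 genes was not tested.

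Leaving out 1 array at a time gave 17 to 21 passing genes without IL-6 and 19 to 31 with it. Cdk1, Cdc20, Anln, Plk1, Mad2l1 and Incenp kept their call throughout without IL-6, as did Cdc20, Bub1, Cdk1, Mad2l1, Aurkb and Incenp with IL-6. With the mouse arrays in the same fit, whose replicates spread more, 5 genes passed in each culture (Ccna2, Cdc20, Mad2l1 and Incenp in both, with Anln without and Bub1 with IL-6).

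IL-6 itself moved none of the 35 genes past the threshold. At D1, 0 of 35 passed (limma, 0.0511% of all probe sets passed), 1 had an unadjusted p under 0.05, and the median difference was -0.06. Cep55 (0.94, SE 0.37, with both D1-Control arrays near background), Mki67 (-0.14, SE 0.07) and Prc1 (-0.33, SE 0.16) came first by limma's unadjusted value, each with an adjusted p of 1. At D2, 0 of 35 passed where 3.31% of all did, 4 had an unadjusted p under 0.05, and the median was -0.07, equal to that of all probe sets (-0.07). The smallest limma p at D2 were those of Cit (-0.64, SE 0.21, adjusted p = 0.174), Ckap2 (-0.64, SE 0.26, adjusted p = 0.295) and Bub1 (-0.83, SE 0.35, adjusted p = 0.307). Both IL-6 arrays were below both control arrays at D2 for 8 genes and above for 1, against 22.5% and 16.3% of all probe sets.

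The 95% interval of the IL-6 difference lay within 1 log2 unit of zero for 33 of the 35 genes at D1 (not Anln and Cep55) and for 30 at D2 (not Bub1, Cit, Cep55, Ckap2 and Ttk). The difference between the IL-6 effects at D2 and D1 passed for 0 of 35 genes (1.19% of all), none at an unadjusted p under 0.05, with Ckap2 having the smallest p (-0.74, SE 0.37, adjusted p = 0.689). In the neighbouring lists at D2, the inhibitory kinase gene Wee1 was lower with IL-6 (-1.15, SE 0.25, adjusted p = 0.0354), and Septin9 (1.44, SE 0.26) and Diaph2, a paralog of Diaph1 (at least 1.8-fold, near background on both D2-Control arrays), were higher. At D2 the neutrophil marker mean was 8.36 and 8.08 with and 5.90 and 5.86 without IL-6, and 4 of 10 neutrophil, 4 of 7 granulocyte progenitor and 7 of 7 monocyte and macrophage markers (median 4.70) were higher with it. That median is of fitted values. Mpeg1 (at least 19.2-fold), Adgre1 (at least 4.41-fold) and Cd14 (at least 1.03-fold) were near background on both D2-Control arrays.

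In the mice 34 of the 35 genes, all but Cep55, had a higher mean at stage IV than at stage II+III in both genotypes. In the DKO 19 rose from stage II+III to IV and 1, Cep55, fell, where 4.11% of all probe sets rose and 3.66% fell. The median log2 change was 2.55 against 0.06 over all, and both stage IV arrays were above both II+III arrays for 34 of 35 genes (31.6% of all). Of the genes above background on at least 1 array of each group, Ect2 rose most (3.74, SE 0.66, 13.3-fold, adjusted p = 0.00928), with 1 of its 2 DKO-II+III arrays near background, followed among the passing genes by Anln (3.18, SE 0.58), Incenp (3.16, SE 0.49) and Hmmr (2.97, SE 0.76). Cenpf rose at least 6.15-fold (limma adjusted p = 0.00726), a lower bound since it was near background on both DKO-II+III arrays (mean 6.93, against 10.15 in DKO-IV). Cep55 fell at least 3.1-fold (limma adjusted p = 0.0116), from a mean of 9.25 to 6.82, near background on both DKO-IV arrays. Such bounds take the background of each array as the level of the dimmer group. By role, all 5 spindle genes rose (2.12 for Nusap1 to 2.97 for Hmmr), as did 5 of 9 kinetochore and checkpoint genes, 4 of 10 central spindle and cytokinesis genes, Ccnb2 (1.66, SE 0.32) and Ccna2 (1.87, SE 0.38), Cdca8 and Incenp, and Top2a. Cdk1 did not pass although its difference was 2.55, since its SE was 1.52, and the replicates of DKO-I, 6.74 apart for Cdk1, enter that SE.

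In the DWT 2 genes rose over the same step: Bub1 (2.33, SE 0.58, 5.04-fold, adjusted p = 0.0472) and Anln (2.29, SE 0.58, 4.88-fold, adjusted p = 0.0483), where 1.59% of all probe sets rose and 5.16% passed in either direction. The median log2 difference was 1.58 against 0.12 over all, and both DWT-IV arrays were above both DWT-II+III arrays for 34 genes (36.0% of all). Bub1 was at 11.58 and 10.39 in DWT-II+III, with 13.33 and 13.31 in DWT-IV. Cep55 again lay the other way (-1.24, SE 0.46, adjusted p = 0.146). The difference of the step between genotypes passed for 0 of 35 genes (0% of all probe sets), 1 had an unadjusted p under 0.05 (Nusap1, 1.15, SE 0.51), and the median was 0.95.

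Without DKO-I replicate 2, which is in neither of these groups but enters the spread that all mouse arrays share, 33 of 35 genes rose in the DWT (6.88% of all) and 33 rose and Cep55 fell in the DKO (8.69% of all rose). Mad2l1 did not pass in either genotype then (0.77, SE 0.37 and 1.10, SE 0.37), nor did Cep55 in the DWT. With any 1 of the 4 compared arrays left out instead, the DWT count was 0, and the DKO count was 9 without DKO-II+III replicate 1, 7 without DKO-II+III replicate 2, 3 without DKO-IV replicate 1 and 1 without DKO-IV replicate 2. With the sex of the mouse as a term, 0 genes passed in the DWT and 16 in the DKO, and with the arrays centred on their medians 0 passed in the DWT. DWT-II+III replicate 1, from the male, was above replicate 2 for 34 of the 35 genes, by 0.80 on average.

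**Figure D3:**
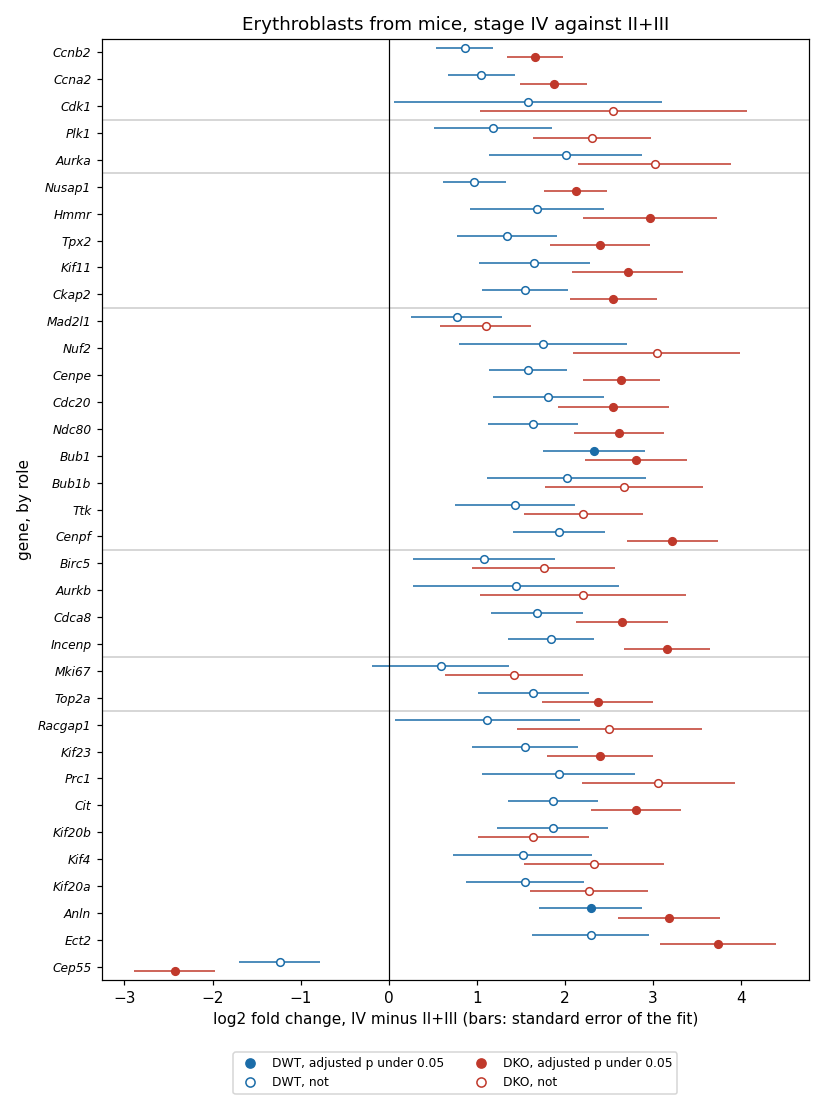
Log2 fold change of each gene from stage II+III to stage IV (points) with the standard error of the fit of the 12 mouse arrays (bars), in DWT (blue) and DKO (red), filled where the adjusted p was under 0.05. All genes but Cep55 lie above 0 in both genotypes, and the wide bars of Cdk1 (1.52), Aurkb (1.17) and Racgap1 (1.05) mark the genes on which the DKO-I replicates lay far apart. The DKO points of Cenpf and Cep55 are fitted values with 1 group near background.

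Erythroid markers were also higher at stage IV. Their median change was 1.44 in the DWT (2 of 9 passed) and 3.07 in the DKO (8 of 9 passed), beside 1.58 and 2.55 for the 35 genes. Neutrophil markers fell, with medians of -3.62 (6 of 10 passed) and -3.02 (6 of 10), and the granulocyte progenitor medians were -4.32 and -5.09. Monocyte and macrophage markers had medians of -3.37 (4 of 7 fell) and -2.89 (3 of 7 fell). The part of these shifts in the rise of the mitotic genes was not tested. S phase genes were higher at stage IV on all arrays for 22 of 22 genes in both genotypes, with medians of 0.92 (0 passed) and 1.62 (5 passed), beside 1.58 and 2.55 for the 35.

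Genes of other division lists rose into stage IV as well, where 4.11% (DKO) and 1.59% (DWT) of all probe sets rose. In the DKO 7 of 8 further mitotic kinesins rose, led by Kif14 (3.68, with 1 DKO-II+III array near background), Kif18b (3.58) and Kif18a (3.47). So did 5 of 8 condensin genes and 17 of 30 kinetochore genes (Ska2, 4.15, and Spc25, 3.03, among them). Of 30 centrosome and spindle genes 14 rose (Spag5, 3.75, from a DKO-II+III mean of 7.34, about the background level). Of the regulators of mitotic entry 6 of 18 rose, including the phosphatase genes Cdc25b (4.52) and Cdc25c (at least 8.89-fold, near background on both DKO-II+III arrays) and the kinase gene Nek2 (3.96). Of the 38 abscission and contractile ring genes 4 rose, among them Myh10 (3.66, with 1 DKO-II+III array near background), and Diaph2 (-2.69) and Myl12b (-1.69) fell. In the DWT 4 of 8 kinesins, 4 of 30 kinetochore, 3 of 30 centrosome and 1 of 8 condensin genes (Ncapg2, 2.26) rose, with Kif14 (2.71), Kif24 (2.62) and Kifc1 (2.55) the highest.

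The earlier step, from stage I to II+III, moved none of the 35 past the threshold in either genotype. In the DWT 0 of 35 passed (0.245% of all), 1 had an unadjusted p under 0.05, and the median was 0.19. Cep55 (-1.82, SE 0.46, adjusted p = 0.205), Nusap1 (0.74, SE 0.36, adjusted p = 0.739) and Ccnb2 (0.64, SE 0.32, adjusted p = 0.758) had the smallest limma p. In the DKO 0 of 35 passed (0.327% of all), 4 had an unadjusted p under 0.05, and the median was 0.69, with Cit (1.43, SE 0.51, adjusted p = 0.413), Mki67 (2.13, SE 0.78, adjusted p = 0.423) and Birc5 (1.97, SE 0.81, adjusted p = 0.456) first. That median rests on DKO-I replicate 2: without it, it was -0.30, and without replicate 1 instead 20 genes rose. The erythroid medians over this step were 1.62 in the DWT and 2.87 in the DKO.

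**Figure D4:**
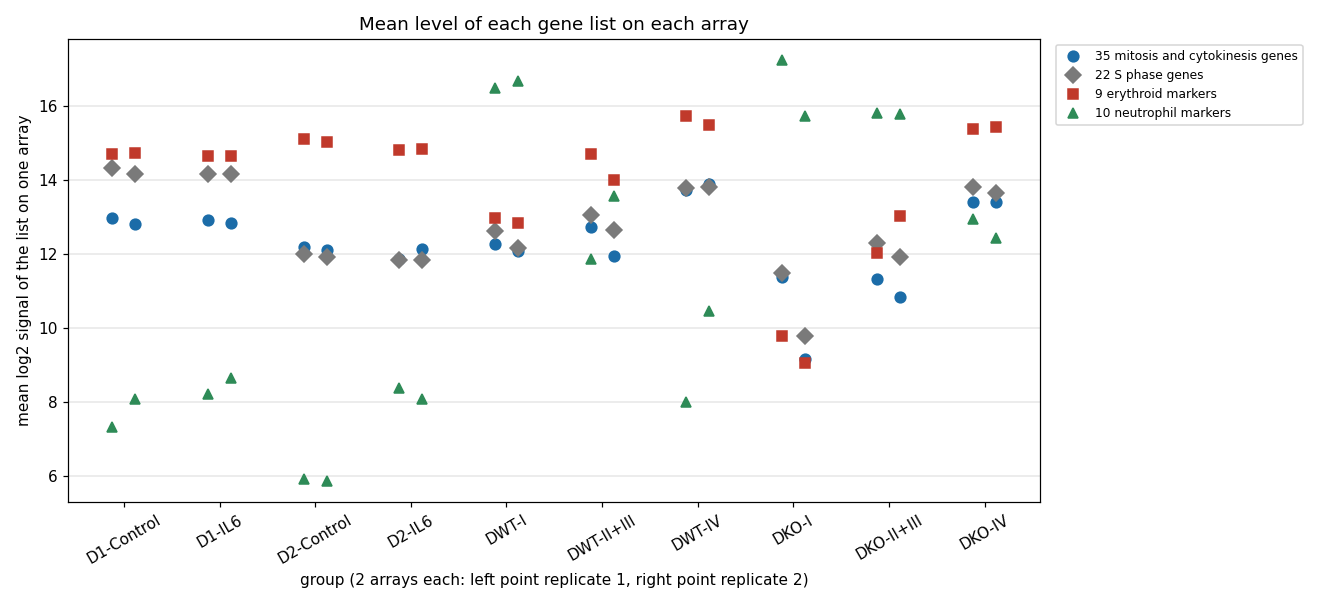
Mean log2 signal on each array of the 35 genes (blue circles), 22 S phase genes (grey diamonds), 9 erythroid markers (red squares) and 10 neutrophil markers (green triangles), by group with replicate 1 left and replicate 2 right; heights compare arrays within a list, not lists. The 35 genes are at 13.41 to 13.91 on the stage IV arrays and at 9.16 on DKO-I replicate 2.

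Between the genotypes, the 35 genes were lower in the DKO at stages I and II+III on most arrays, and none passed in the fit of 12 arrays. At stage I 0 of 35 passed (0.445% of all), 30 had an unadjusted p under 0.05, and both DKO arrays were below both DWT arrays for 34 genes, all but Cep55 (17.4% of all). The replicates differed widely in size. The median difference of DKO-I replicate 1 from the DWT-I mean was -0.79 (log2), from -1.61 for Kif11 to 0.09 for Cep55. For DKO-I replicate 2 the median was -3.04, from -7.22 for Cdk1 to 0.09 for Cep55, and 9 of the 35 genes were near background there against 1 on replicate 1. Taken alone, each replicate was below both DWT arrays for 34 genes, where 33.8% and 33.3% of all probe sets were. The smallest limma p at stage I were those of Cit (-2.36, SE 0.51, adjusted p = 0.0914), Kif11 (-2.55, SE 0.63, adjusted p = 0.146) and Cenpf (adjusted p = 0.159), which was near background on both DKO-I arrays and at least 1.95-fold lower there. The count was 32 without DKO-I replicate 1 and 0 without replicate 2, each with 1 DKO-I array whose spread is taken from the other groups.

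Erythroid markers were lower at DKO-I too, by a median of -3.33 (9 of 9 below, 7 passed), and the median difference of the neutrophil markers was 0.02. Other marker lists were lower on DKO-I replicate 2, and replicate 2 of the DKO was low for them at the later stages too. The granulocyte progenitor mean was 13.86 and 10.40 in DKO-I (13.93 and 13.65 in DWT-I), the eosinophil mean 10.19 and 6.58 (12.41 and 12.57), the mast cell and basophil mean 8.97 and 7.53 (11.35 and 11.76), and the stem and progenitor mean 8.94 and 6.11 (10.31 and 10.37). Of these lists 1 gene passed, the eosinophil marker Il5ra. At II+III every gene of these lists was lower on DKO replicate 2 than on replicate 1, and at IV all but Gfi1 were. Kit was at 14.46 and 10.37 in DKO-II+III and at 12.29 and 6 in DKO-IV (replicates 1 and 2). The eosinophil marker Prg2 was at 17.37 and 12.82, then at 13.80 and 10.01. T and NK cell markers were higher in DKO-I by a median of 2.28 (2 of 6 passed). S phase genes were lower by a median of -1.80, with 19 of 22 below on all arrays and 0 passing. On DKO-I replicate 2 the positive control probe sets were also lowest, as given above. The part of these in the lower mitotic genes was not tested.

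At stage II+III 0 of 35 passed in the 12-array fit (0.618% of all), and 13 had an unadjusted p under 0.05. Both DKO arrays were below both DWT arrays for 31 genes (21.2% of all), Mad2l1, Bub1 and Kif20b overlapped, and Cep55 was above (1.26, SE 0.46). The median difference was -1.23 (0.01 over all), and by array it was -1.09 and -1.55. The DWT-II+III mean includes the male array, which was above the female one for 34 of the 35 genes, by 0.80 on average. Both DKO arrays came from females, so that sex is not balanced in this comparison. The smallest limma p were those of Cenpf (adjusted p = 0.0919; near background on both DKO-II+III arrays and at least 3.39-fold lower there), Cenpe (-1.75, SE 0.44, adjusted p = 0.141) and Incenp (-1.83, SE 0.49, adjusted p = 0.17). Without DKO-I replicate 2, 10 genes passed and all were lower. Of all probe sets 2.96% passed then, 1.9% being lower and 1.06% higher. The 10 were Cenpf (limma adjusted p = 0.0108), Cit (-1.67, SE 0.29), Incenp (-1.83, SE 0.34), Racgap1 (-1.47, SE 0.27), Plk1 (-1.18, SE 0.22), Mki67 (-0.96, SE 0.18), Hmmr, Cenpe, Nusap1 and Prc1. The erythroid markers were lower by a median of -1.97 (2 of 9 passed) and the neutrophil markers higher by 3.06 (10 of 10 above, 0 passed). Mast cell and basophil markers were lower by a median of -3.20 (4 of 4 below, 0 passed). On DKO-II+III replicates 1 and 2, Mcpt8 was at 15.34 and 12.95, and Cpa3 at 12.12 and 7.98. The part of these lists was not tested.

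At stage IV 0 of 35 genes passed (0.046% of all), and 0 had an unadjusted p under 0.05. The median difference was -0.36 (-0.02 over all), and both DKO arrays were below for 23 genes (23.4% of all) and above for none. Kif20b (-1.38, SE 0.63, adjusted p = 0.618), Cenpf (-1.07, SE 0.52, adjusted p = 0.654) and Cenpe (-0.68, SE 0.44, adjusted p = 0.774) had the smallest limma p. Kif20b was at 12.21 and 12.23 in DKO-IV and 13.67 and 13.54 in DWT-IV. The 95% interval of the difference lay within 1 log2 unit of zero for 3 genes (Ccna2, Ccnb2 and Nusap1) and reached past 1 log2 unit in at least 1 direction for the other 32. Without DKO-I replicate 2, which is in neither group, it lay within 1 log2 unit for 11 genes, Birc5, Mki67, Plk1, Racgap1, Tpx2, Cdc20, Aurka and Mad2l1 besides those 3. The neutrophil markers were higher in DKO-IV by a median of 3.70 (10 of 10 above, 0 passed), and the erythroid median was -0.33.

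**Figure D5:**
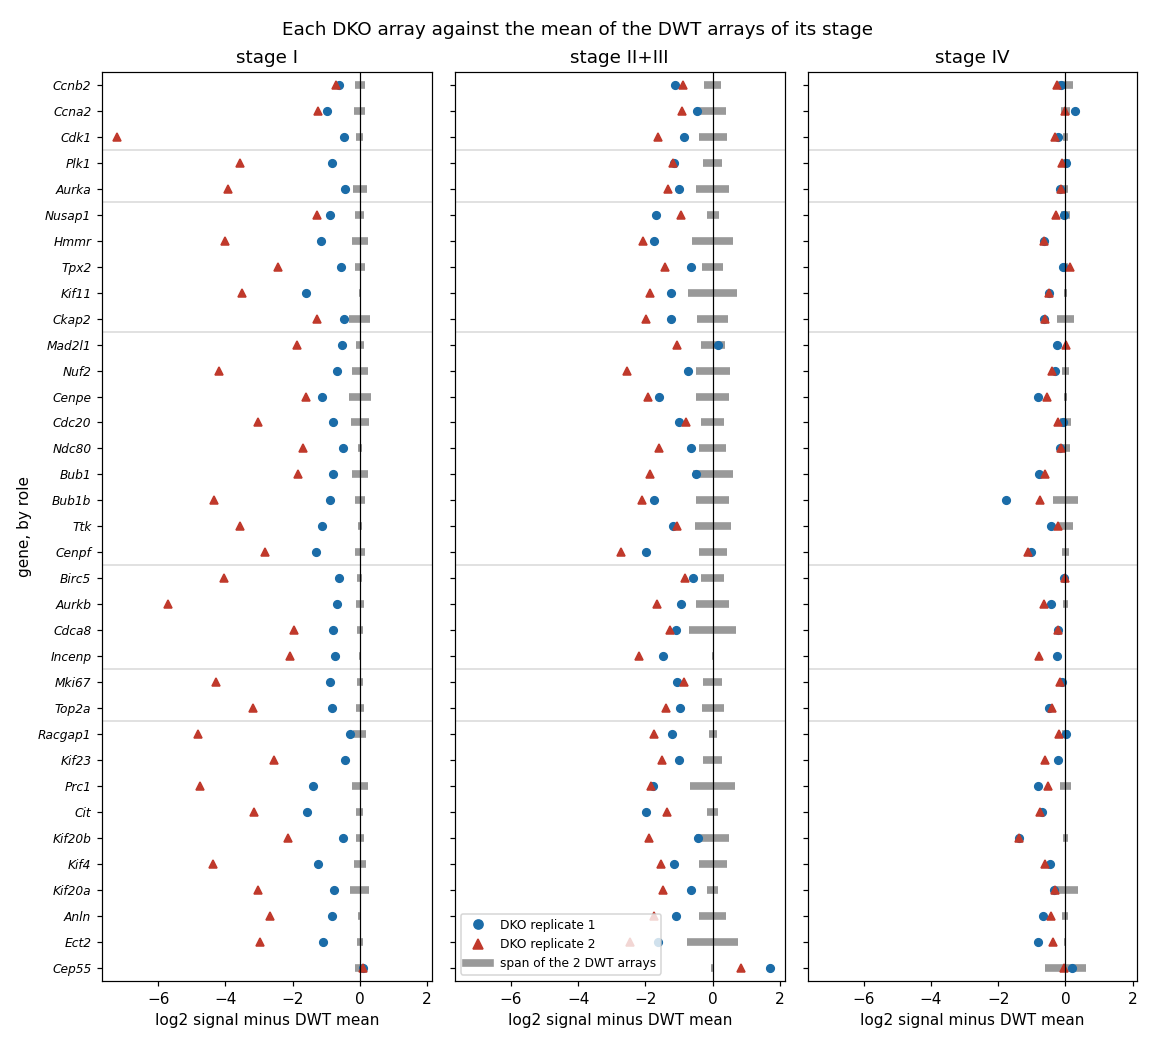
Log2 signal of each DKO array minus the mean of the 2 DWT arrays of its stage, for replicate 1 (blue circles) and replicate 2 (red triangles), in 1 panel per stage, with the span of the DWT arrays as grey bars. At stage I replicate 2 lies far to the left (median -3.04) of replicate 1 (-0.79), at stage II+III both lie left of the DWT bars for most genes, and at stage IV replicate 1 lies below both DWT arrays for 26 genes and replicate 2 for 27, at medians of -0.31 and -0.38.

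No change of the genotype difference between stages passed the test: 0 of 35 did so for II+III against I (0% of all; 0 at an unadjusted p under 0.05; Cep55 first, 1.18, SE 0.65, adjusted p = 0.799). For II+III against I, 13 passed without DKO-I replicate 1 and 0 without replicate 2. In the neighbouring lists, apart from Diaph1 itself, Myh10 was lower in the DKO at stage I (at least 3.83-fold, limma adjusted p = 0.0133, near background on both DKO-I arrays) and at II+III (-3.87, SE 0.53, adjusted p = 0.0136), and Fzr1 was lower at II+III (-1.87, SE 0.35, adjusted p = 0.047). Of the condensin, kinesin, kinetochore, centrosome and S phase lists no gene passed between the genotypes at any of the 3 stages in the 12-array fit.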

How the data were processed

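The values are log2 signals that the authors deposited for 20 Clariom S arrays, computed by Affymetrix Expression Console with RMA (robust multi-array averaging), per the submitters' processing notes, which give no versions. RMA corrects background and equalises the distributions of the arrays it is run on together, so a shift shared by most genes is removed, and whether all 20 arrays were run together is not given in the sources used here. They range from 2.88 to 19.28. Array number limits the precision: 2 arrays a group, fitted as independent although no label says which DKO arrays share a mouse. Of 28846 probe sets, the 19572 with 1 gene symbol in the platform annotation were analysed. The genes and lists were chosen with earlier results of these data known.

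Group means were fitted with limma 3.58.1 in R 4.3.3 (eBayes with intensity trend), 8 cultured arrays in 1 fit (4 residual and 6.41 prior degrees of freedom) and 12 mouse arrays in another (6 and 4.52), and p-values were adjusted over the 19572 probe sets (Benjamini-Hochberg, 0.05). The fit was also run on simulated data, with noise drawn independently for each probe set and array. Those data held no outlying array like DKO-I replicate 2, so the run does not bear on its effect. Genes given array by array are, in each role, the one of highest mean and the one of widest range, and others listed beforehand; in each comparison the passing genes of largest difference, up to 5 a direction, or the 3 of smallest p, are named. Bub1 and Kif20b values are given for their comparisons, and Incenp and Cep55 for their course. Alternatives were quantile normalization, median centring, no trend, all 20 arrays or only those compared in 1 fit, a filter on low signal, a sex term as replicate block and each array left out.

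Whether replicates pair across stages was checked in the DWT, where the labels give 1 male and 1 female a stage: the male minus female difference correlated over probe sets at 0.10 between stages I and II+III, 0.02 between I and IV and 0.12 between II+III and IV. miR-146a was not analysed here. Promoters were read from a RefSeq table (GRCm38.p6).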

Additional observations from a re-analysis of the deposited data

How the results depend on the processing

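Over the 14 comparisons, 167 counts of passing genes were computed under other settings, 140 lay within 1.5 times the count reported, and no gene that passed changed sign under any of them. A reported count of 0 that stayed at 0 is among the 140, and most of the comparisons had a reported count of 0. With all 20 arrays in 1 fit the count was 5 for D2 against D1 without IL-6, 5 with IL-6, 9 for DKO against DWT at stage I, 7 at II+III and 16 for DWT-IV against DWT-II+III. The last count was also 5 with quantile normalization, 0 with centred arrays, 5 with no trend, 27 with only the arrays compared, 7 with the low-signal filter, 0 with the replicate block (the sex term, which left the DKO count for the same step at 16), and 0 with each compared array left out in turn. With only the arrays compared, DKO-IV against DKO-II+III gave 33 and DWT-II+III against DWT-I gave 1 (Cep55). Leaving out 1 array, the ranges were 0 to 32 for the genotype at stage I, 0 to 10 at stage II+III, 0 to 33 for DWT-IV against DWT-II+III, 0 to 20 for DKO-II+III against DKO-I, 1 to 34 for DKO-IV against DKO-II+III and 0 to 13 for the change of the genotype difference between I and II+III; the highest values at II+III and at both stage IV steps are those without DKO-I replicate 2, chosen after the data were seen. Fewer arrays and a smaller shared spread are the construction of these settings, and otherwise the cause was not tested. The replicate block, possible in the mouse fit through the sex label, changed no other call count by over 1.5 times; the labels give the cultured arrays no pairing. In the DKO, whose replicate numbers follow accession order, replicate 1 minus 2 correlated over probe sets at 0.30, 0.20 and 0.37 between stages, a hint of pairing from the data and not the design, and no DKO block was fitted. A setting with every probe set of a gene gives the reported values, since each gene has 1. The 95% interval of the stage IV genotype difference reached past 1 log2 unit for 32 of 35 genes with 12 mouse arrays and for 24 without DKO-I replicate 2.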
